A study of Mus musculus with 6 samples.

Results

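The genes described here carry out the shared opening steps of branched-chain amino acid breakdown and the branch that is particular to leucine. They are Bcat2, Bckdha, Bckdhb, Dbt, Bckdk, Ppm1k, Ivd, Mccc1, Mccc2 and Auh, 10 of the 48432 genes in the table. They were chosen by name for their place in the pathway, with earlier results of these data known. All 10 were measured in every library and all 10 passed the filter on low counts. Livers of 10-week-old mice were profiled by RNA sequencing in 2 groups of 3 libraries. The control group (Ctl) carried the Albumin-Cre transgene, in which the albumin promoter drives Cre recombinase in hepatocytes. The other group (Li-KO) lacked Klf15, a transcription factor of the Kruppel-like family, specifically in liver. The labels do not name the Cre driver of the Li-KO mice, the exon removed, a Klf15 allele in the Ctl mice, the sex, the feeding state or the time of day. Whether each library is a different mouse is not stated, so the p-values rest on the spread between libraries, which may be technical.

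Leucine, isoleucine and valine are first transaminated to their branched-chain keto acids by the mitochondrial aminotransferase Bcat2. The branched-chain keto acid dehydrogenase complex (BCKDH) then decarboxylates the keto acids and is the committed step. Its decarboxylase is built of an alpha subunit (Bckdha) and a beta subunit (Bckdhb), its transacylase core is Dbt, and its dihydrolipoamide dehydrogenase, Dld, is shared with other complexes. The kinase Bckdk switches the complex off by phosphorylating the alpha subunit, and the phosphatase Ppm1k switches it back on. For leucine, Ivd (isovaleryl-CoA dehydrogenase), methylcrotonyl-CoA carboxylase (Mccc1 and Mccc2) and the hydratase Auh follow in that order. Liver is known for little aminotransferase and much BCKDH, so that it mainly oxidises keto acids released by other tissues.

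Of the 10 genes, 7 fell in Li-KO liver and 0 rose, while 5.9% of all 16533 genes tested fell and 6.11% rose (12.0% in either direction). These shares depend on the libraries: 1010 genes rose and 976 fell, and leaving out 1 library gave 198 to 1102 and 234 to 1447, with the lowest counts without Ctl replicate 1 and counts more than 1.5 times lower also without Ctl replicate 2 or Li-KO replicate 1 and, for genes that fell, without replicate 0 of either group. DESeq2 called 1595 higher and 1551 lower. The count of 7 of the 10 was the same in all of these fits. The 10 were chosen with earlier results of these data known, so their share beside that of all genes is a description. The 7 were Ivd, Dbt, Bckdhb, Mccc1, Ppm1k, Bcat2 and Mccc2. Ivd fell 7.97-fold, and the other 6 fell between 1.91-fold (Mccc2) and 3.20-fold (Dbt). Bckdha, Bckdk and Auh did not pass the test. A change was called where the adjusted p was under 0.05 in edgeR's quasi-likelihood test with Benjamini-Hochberg adjustment over all genes tested, which is the source of every adjusted p given here. The median log2 fold change (Li-KO minus Ctl) was -1.08 over the 10 genes and -0.01 over all genes tested. In 7 genes each Li-KO library lay below each Ctl library, a separation seen in 17.8% of all genes tested. In 1 gene, Auh, each Li-KO library lay above each Ctl library, against 17.4% of all genes. The groups overlapped in 2, Bckdha and Bckdk. In bulk liver, fewer cells of a type and less RNA per cell cannot be told apart.

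**Figure D1:**
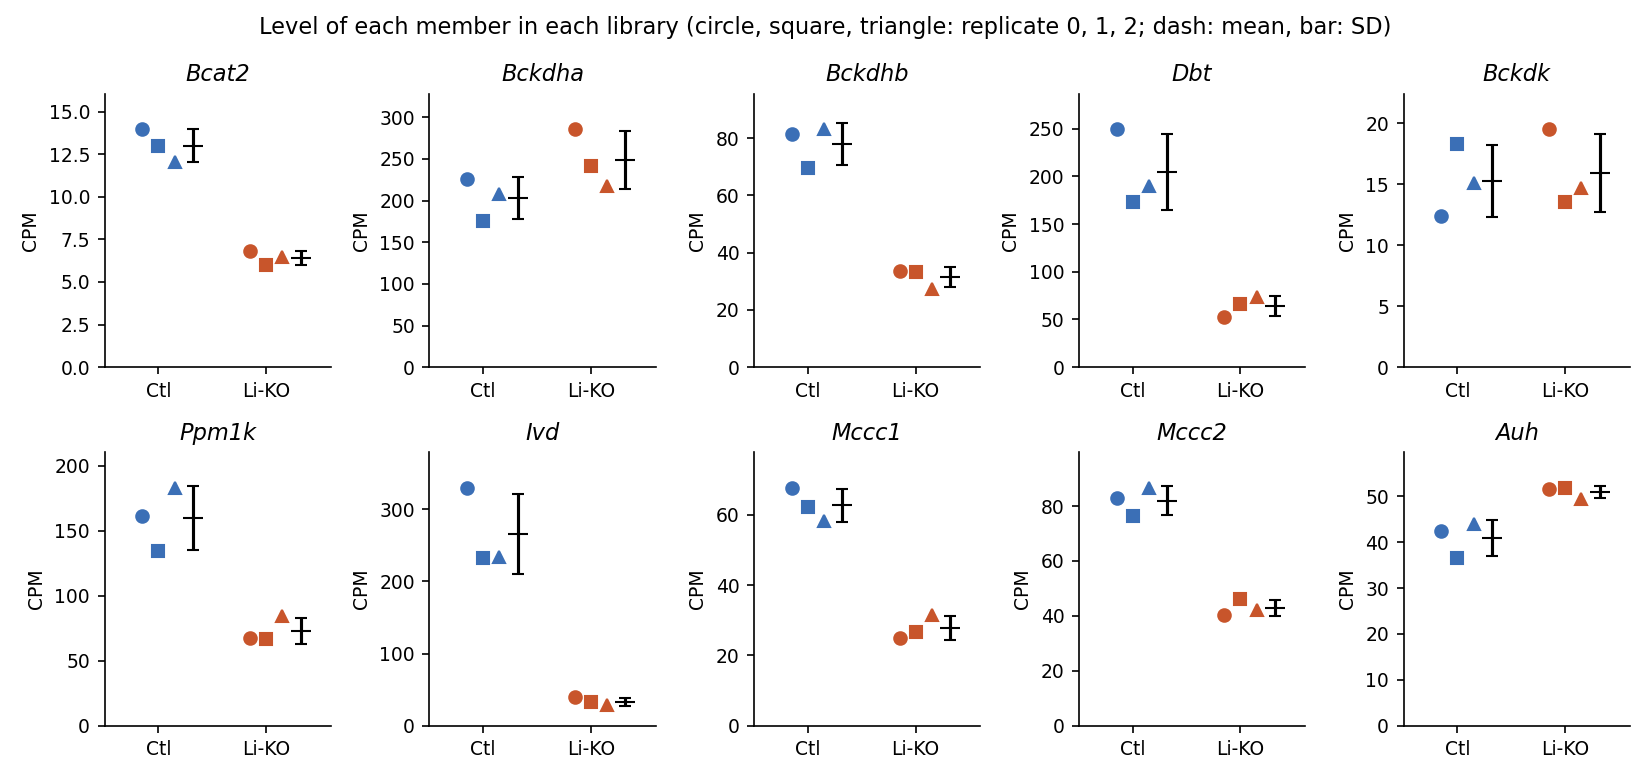
Level of each of the 10 genes in CPM (counts scaled to library size, linear axes from 0) in the 3 Ctl and 3 Li-KO libraries, with each symbol 1 library, the dash the group mean and the bar the SD. The Li-KO points lie below all Ctl points for Bcat2, Bckdhb, Dbt, Ppm1k, Ivd, Mccc1 and Mccc2, overlap them for Bckdha and Bckdk, and lie above them for Auh.

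Promoter stretches are shown from 3 genes that fell (Ivd, Bckdhb and Mccc1) and from Bckdk, which did not pass the test, because Kruppel-like factors are known to bind CACCC and GC-rich elements. They are RefSeq sequence on GRCm38.p6 (mm10), printed 5′ to 3′ on the strand of the gene and ending before its annotated start. The regions are chr2:118861744-118861953 (plus strand), chr9:83924887-83925136 (plus strand), chr3:36000679-36000928 (minus strand) and chr7:127903823-127904072 (plus strand). Capitals mark CACCC on either strand, so that GGGTG is the same motif read from the other strand.
Ivd: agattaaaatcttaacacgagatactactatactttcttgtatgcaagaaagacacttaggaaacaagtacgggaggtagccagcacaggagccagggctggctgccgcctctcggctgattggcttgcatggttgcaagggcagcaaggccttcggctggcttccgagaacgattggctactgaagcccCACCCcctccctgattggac
Bckdhb: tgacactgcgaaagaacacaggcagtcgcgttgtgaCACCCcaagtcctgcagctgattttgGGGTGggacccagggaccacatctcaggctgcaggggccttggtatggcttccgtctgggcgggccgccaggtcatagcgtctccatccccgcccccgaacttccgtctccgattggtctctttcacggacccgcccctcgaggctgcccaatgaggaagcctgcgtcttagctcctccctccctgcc
Mccc1: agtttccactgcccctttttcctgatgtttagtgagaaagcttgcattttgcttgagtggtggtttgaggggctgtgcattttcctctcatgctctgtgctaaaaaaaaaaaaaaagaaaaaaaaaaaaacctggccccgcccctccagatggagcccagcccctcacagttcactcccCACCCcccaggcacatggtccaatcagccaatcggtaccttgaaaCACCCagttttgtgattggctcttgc
Bckdk: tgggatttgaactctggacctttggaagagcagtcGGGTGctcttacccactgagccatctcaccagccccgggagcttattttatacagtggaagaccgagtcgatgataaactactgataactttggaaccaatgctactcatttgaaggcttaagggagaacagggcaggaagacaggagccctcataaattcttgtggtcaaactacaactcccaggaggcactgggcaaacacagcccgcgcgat

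The motif occurred once in the Ivd stretch, at 2 places each in the Bckdhb and Mccc1 stretches and once in the Bckdk stretch. All stretches shown thus held it. Those of Bckdha, Ppm1k and Auh, which held none, and of Bcat2 and Mccc2, which held it, are not shown. Over the whole window of 300 bases (250 before and 50 after the start, the window listed first for a gene with several), 6 of 9 matched genes held CACCC, all but Bckdha, Ppm1k and Auh. Bcat2 and Bckdhb have a second window, without either motif. Counted over windows, 6 of 11 (54.5%) held CACCC, against 57.5% of all 32851 promoter windows that RefSeq gave. The motif GGGCGG, counted on either strand and separately from CACCC, was in 4 of the 9 genes (Bckdhb, Ppm1k, Mccc1 and Auh). By window it was in 4 of 11 (36.4%), against 35.7% of all windows. By call, CACCC was in the first window of Bcat2, Bckdhb, Ivd, Mccc1 and Mccc2, which fell, and of Bckdk, which did not pass. It was absent from that of Ppm1k, which fell, and of Bckdha and Auh, which did not pass. Matches of these letters describe the sequence only. Dbt was not matched.

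The libraries held 30132499 to 42782318 fragments on genes that were not skipped. Klf15, the gene targeted in Li-KO, was at 345, 174 and 196 CPM in Ctl replicates 0, 1 and 2 and at 54.3, 41.6 and 51.8 CPM in Li-KO replicates 0, 1 and 2. All Li-KO values were under all Ctl values (log2 fold change -2.28 ± 0.26, adjusted p = 0.00275). By the fit, 20.6% of the Ctl level of Klf15 remained, and the loss of single exons was not examined. The summed level of 8 measured hepatocyte markers was 18110 to 24150 CPM in Ctl and 21410 to 24790 CPM in Li-KO, with 1 of 8 higher (Asgr2) and 1 lower (Tdo2). Sums for Kupffer cells (10 markers, 368 to 524 CPM in Ctl and 330.1 to 500.0 in Li-KO), sinusoidal endothelium (8 markers, 845 to 979 and 686 to 1087) and stellate cells and fibroblasts (9 markers, 622 to 639 and 602 to 762) overlapped between groups, and 0 of these markers passed the test. Erythroid markers (6) summed to 739.7 to 810.1 CPM in Ctl and 295 to 589 CPM in Li-KO with 0 passing, and their part in the results was not tested. Cholangiocyte markers (6) summed to 33.5 to 63.7 CPM in Ctl and 48.0 to 152 CPM in Li-KO with Sox9 lower. Lymphocyte and neutrophil markers summed to at most 6.96 CPM in each library, and adipocyte and pancreas markers to at most 12.45 CPM. Markers of skeletal muscle (5), which is rich in Bcat2, summed to 0.530 to 0.623 CPM in Ctl and 0.487 to 0.741 CPM in Li-KO. Of these 5 muscle markers, 2 (Ckm and Myh4) were at 0 in all 6 libraries.

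Bcat2 (ENSMUSG00000030826.19, chromosome 7, 45570153 to 45589711, plus strand, 14 exon blocks, mm10), the mitochondrial aminotransferase, was, per transcript length, the least abundant of the genes that fell. Its level was 14.0, 13.0 and 12.1 CPM in Ctl against 6.80, 6.01 and 6.44 CPM in Li-KO, in the order of replicates 0, 1 and 2. The 3 values of each group lay close together and the groups were well apart. The mean fell from 13.0 ± 0.951 CPM in Ctl to 6.42 ± 0.398 CPM in Li-KO (SD, n = 3), a log2 fold change of -1.02 ± 0.16 (SE) with an adjusted p of 0.00831. The call held in each fit that left out 1 library, with an adjusted p of at most 0.0463 (without Ctl replicate 1). Its exons share 622 bases with the antisense gene 0610005C13Rik, which was at 110.1, 108 and 136 CPM in Ctl against 90.3, 84.0 and 85.3 CPM in Li-KO (log2 fold change -0.45 ± 0.13, adjusted p = 0.0526). The kit was stranded, but no source used here gives the strand setting of the counting, so the value of Bcat2 is uncertain where the genes overlap. Bcat1, the cytosolic aminotransferase, had 1 count in Ctl replicate 0 and 0 in each other library.

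Of the subunits of BCKDH, Bckdhb and Dbt fell, while Bckdha and Dld did not pass the test. Bckdha (ENSMUSG00000060376.7, chromosome 7, 25629946 to 25658981, minus strand, 9 exon blocks), which carries the regulatory phosphorylation sites, was at 226, 176 and 207 CPM in Ctl against 286, 242 and 217 CPM in Li-KO. Li-KO replicates 0 and 1 were above all Ctl libraries, while Li-KO replicate 2 was below Ctl replicate 0. The log2 fold change was 0.29 ± 0.15 with an adjusted p of 0.237, and its 95% interval covered 0.965 to 1.55 times the Ctl level. Bckdhb (ENSMUSG00000032263.14, chromosome 9, 83925145 to 84124240, plus strand, 15 exon blocks), the partner subunit of the same decarboxylase, was at 81.3, 69.5 and 83.2 CPM in Ctl against 33.7, 33.3 and 27.3 CPM in Li-KO. All 3 Li-KO values lay under every Ctl value, and the level fell 2.48-fold (log2 fold change -1.31 ± 0.14, adjusted p = 0.00173). Dbt (ENSMUSG00000000340.10, chromosome 3, 116513070 to 116549981, plus strand, 11 exon blocks), the lipoate-bearing transacylase core, was at 249, 173 and 190.3 CPM in Ctl against 52.3, 66.2 and 73.2 CPM in Li-KO. Ctl replicate 0 was the highest of its group, and the groups stayed far apart. Dbt fell 3.20-fold (log2 fold change -1.68 ± 0.18, adjusted p = 0.00213), with a range of -1.79 to -1.51 over the 6 fits that left out 1 library. Dld, the shared dehydrogenase of the complex, was at 173, 143 and 178 CPM in Ctl against 136, 162 and 217 CPM in Li-KO. Its groups overlapped and it did not pass the test (log2 fold change 0.06 ± 0.18, adjusted p = 0.854).

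**Figure D2:**
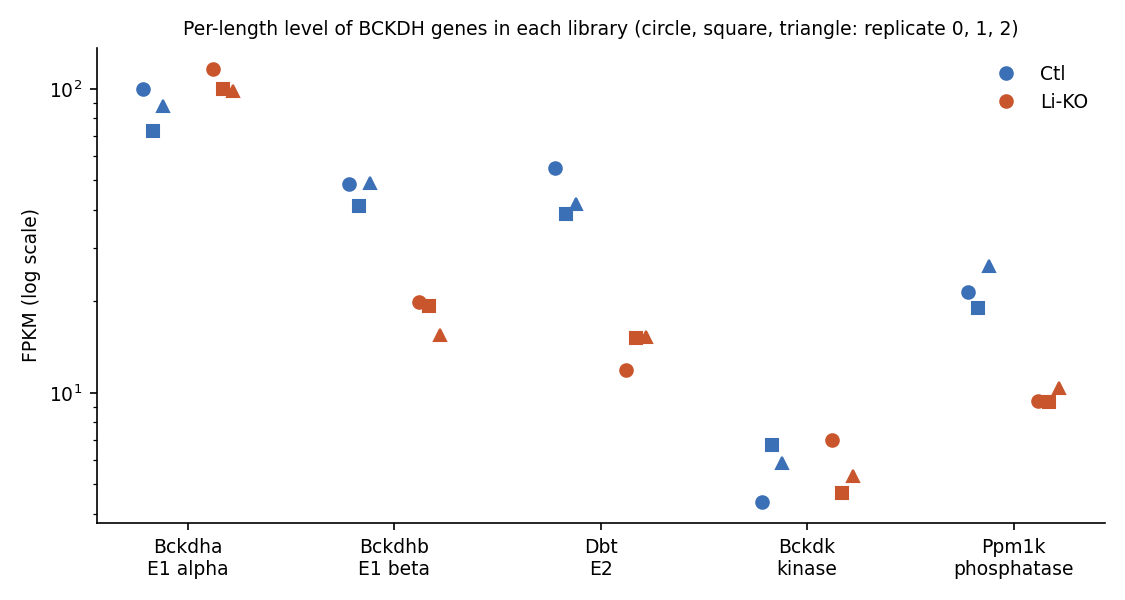
Level of the BCKDH genes per transcript length (FPKM, fragments scaled to length and depth, log axis) in each library, with Ctl in blue and Li-KO in red. Bckdha stays at 72.8 to 116 FPKM in all 6 libraries, while Bckdhb, Dbt and Ppm1k lie lower in all 3 Li-KO libraries and Bckdk is spread alike in both groups.

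Levels of different genes can be set side by side only per transcript length, so FPKM were used for this. Of Bckdha, Bckdhb and Dbt, the alpha subunit was the most abundant in Ctl liver, with 99.8, 72.8 and 87.5 FPKM, followed by Bckdhb with 48.7, 41.1 and 49.0 FPKM and Dbt with 54.9, 38.6 and 41.7 FPKM. Bckdhb and Dbt did not differ beyond their spread in Ctl. In Li-KO liver Bckdha was at 116, 99.8 and 98.6 FPKM, Bckdhb at 19.8, 19.3 and 15.5 FPKM and Dbt at 11.9, 15.2 and 15.2 FPKM. The FPKM ratio of Bckdha to Bckdhb was 2.05, 1.77 and 1.78 in Ctl against 5.84, 5.18 and 6.37 in Li-KO. The ratio was 3.10-fold higher in Li-KO, with no overlap between groups (log2 difference 1.63). The two-sided exact permutation p was 0.1, the smallest that 3 libraries against 3 allow, and 0.167 after adjustment over the 5 ratios tested.

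Of the enzymes that switch BCKDH, the phosphatase fell and the kinase did not pass the test. Bckdk (ENSMUSG00000030802.14, chromosome 7, 127904082 to 127910221, plus strand, 10 exon blocks), the inactivating kinase, was at 12.4, 18.4 and 15.1 CPM in Ctl against 19.5, 13.6 and 14.7 CPM in Li-KO. The groups overlapped throughout, with the highest value in Li-KO replicate 0 and the lowest in Ctl replicate 0. Its log2 fold change was 0.06 ± 0.20 (adjusted p = 0.881), and the 95% interval covered 0.759 to 1.43 times the Ctl level. The sign turned when Ctl replicate 0 (-0.07) or Li-KO replicate 0 (-0.10) was left out, so no direction is given. Ppm1k (ENSMUSG00000037826.5, chromosome 6, 57506502 to 57535468, minus strand, 8 exon blocks), the activating phosphatase, was at 162, 134 and 183 CPM in Ctl against 67.5, 66.8 and 84.1 CPM in Li-KO. Every Li-KO value was below every Ctl value, and Ppm1k fell 2.19-fold (log2 fold change -1.13 ± 0.15, adjusted p = 0.00539).

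Per transcript length, the kinase was the less abundant of the pair in all 6 libraries. The FPKM ratio of Bckdk to Ppm1k was 0.205, 0.355 and 0.224 in Ctl against 0.747, 0.504 and 0.512 in Li-KO. Each Li-KO ratio was above each Ctl ratio, 2.28-fold on the mean log scale (exact permutation p = 0.1, adjusted 0.167). The ratio of Bckdk to its substrate Bckdha was 0.0440, 0.0928 and 0.0670 in Ctl against 0.0604, 0.0471 and 0.0541 in Li-KO. These ratios overlapped and did not differ beyond the spread between libraries (exact permutation p = 0.5, adjusted 0.5). The ratios are of transcripts and give no measure of protein or of the phosphorylation of the complex. Among 7 kinases and phosphatases of the pyruvate dehydrogenase complex, relatives of this pair, 1 rose and 0 fell (of all genes tested, 6.11% rose and 5.9% fell). The one that rose was Pdk4, from 9.28 ± 0.226 CPM in Ctl to 15.1 ± 1.19 CPM in Li-KO (adjusted p = 0.0203), a call that ended on leaving out Ctl replicate 1 or 2 or Li-KO replicate 1 (adjusted p up to 0.0846).

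**Figure D3:**
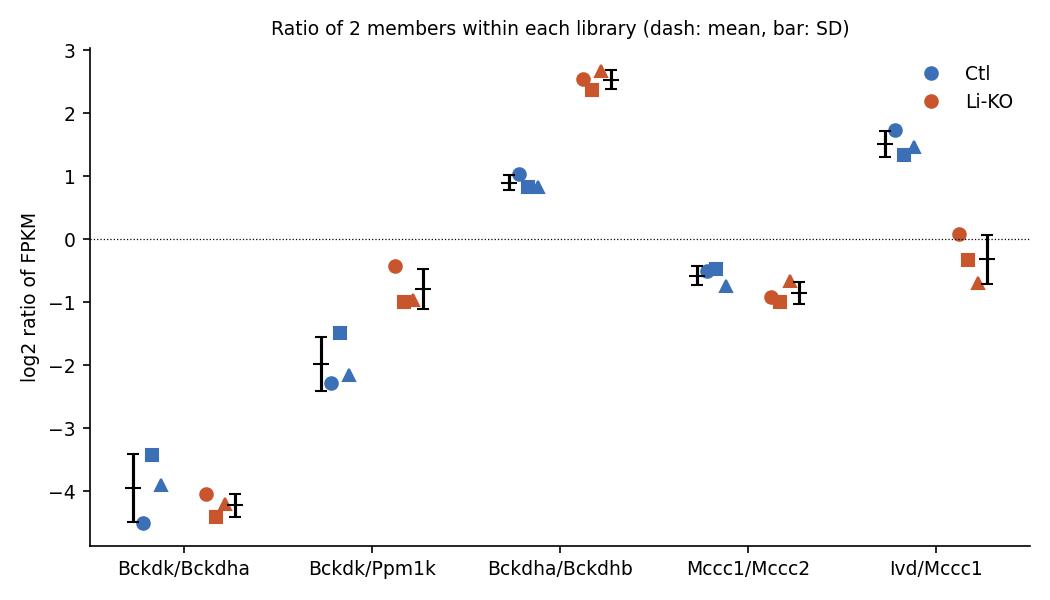
Log2 ratio of FPKM of 2 genes within each library for the 5 ratios tested, with Ctl in blue, Li-KO in red, the dash the group mean and the bar the SD. The groups do not overlap for Bckdk/Ppm1k, Bckdha/Bckdhb and Ivd/Mccc1, and overlap for Bckdk/Bckdha and Mccc1/Mccc2.

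Ivd (ENSMUSG00000027332.11, chromosome 2, 118861954 to 118882909, plus strand, 15 exon blocks) showed the largest change of the 10. This flavoenzyme, whose loss causes isovaleric acidemia in people, was at 329.8, 233 and 234 CPM in Ctl against 39.3, 32.3 and 28.3 CPM in Li-KO. Ctl replicate 0, which also had the highest Klf15 level, stood above Ctl replicates 1 and 2, and no Li-KO value came near a Ctl value. The mean fell from 266 ± 55.6 CPM in Ctl to 33.3 ± 5.57 CPM in Li-KO (SD, n = 3), to 12.6% of the Ctl level by the fit (log2 fold change -2.99 ± 0.19, adjusted p = 0.000495). Without each library in turn the log2 fold change was -3.11 to -2.81, and the adjusted p was at most 0.00472. Ivd ranked 5 among all 16533 genes tested by p. By log2 fold change it was number 14 from the lowest among the 3777 genes with a Ctl mean of at least 50 CPM.

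Ivd belongs to the acyl-CoA dehydrogenases, which hand electrons to the electron transfer flavoprotein, and the relatives that were called went in both directions. Of 14 measured genes, namely these dehydrogenases besides Ivd together with the electron acceptors Etfa, Etfb and Etfdh, 2 fell and 2 rose. The median log2 fold change of the 14 was 0.31. Over all genes tested, 5.9% fell and 6.11% rose. Acadsb, which acts on short branched chains in isoleucine breakdown, fell from 321 ± 21.5 CPM in Ctl to 121 ± 4.48 CPM in Li-KO (adjusted p = 0.000807). Gcdh, the glutaryl-CoA dehydrogenase of lysine and tryptophan breakdown, fell from 627 ± 77.4 CPM in Ctl to 388 ± 61.5 CPM in Li-KO (adjusted p = 0.0321). Acad8, which acts on isobutyryl-CoA from valine, rose from 55.9 ± 8.51 CPM in Ctl to 81.3 ± 4.54 CPM in Li-KO (adjusted p = 0.0389). Acad9, an assembly factor of respiratory complex I, rose from 39.2 ± 1.59 CPM in Ctl to 55.7 ± 3.27 CPM in Li-KO (adjusted p = 0.0260). The Acadsb call held without each library in turn. Without Ctl replicate 1, Ctl replicate 2 or Li-KO replicate 1 the calls of Gcdh, Acad8 and Acad9 ended. They also ended without Ctl replicate 0 (Acad9), without Li-KO replicate 0 (Gcdh and Acad8) and without Li-KO replicate 2 (Acad8), with adjusted p up to 0.129. Etfa, Etfb and Etfdh, which take over the electrons, had log2 fold changes of -0.31, -0.17 and 0.31 and did not pass.

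The 3 genes with the profile most like Ivd over the 6 libraries, among 3778 other genes with a mean of at least 50 CPM, were Abat, Otc and Klf15. Likeness was the root mean square difference of log2 CPM centred on the mean of each gene, which was 0.379 for Abat, 0.424 for Otc and 0.438 for Klf15. Abat was at 542, 455 and 525 CPM in Ctl against 132, 88.9 and 93.5 CPM in Li-KO, and Otc at 663, 646 and 769 and 151, 117 and 148 CPM. With 2 groups, a profile of this kind is mostly the difference between the groups.

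Methylcrotonyl-CoA carboxylase, the biotin enzyme that follows Ivd, fell in both subunits. Mccc1 (ENSMUSG00000027709.9, chromosome 3, 35959312 to 36000678, minus strand, 19 exon blocks), the biotin-bearing alpha subunit, was at 67.7, 62.2 and 58.1 CPM in Ctl against 24.8, 26.8 and 31.6 CPM in Li-KO. Mccc2 (ENSMUSG00000021646.8 in the count table and ENSMUSG00000021646.9 in the annotation that gives the position, chromosome 13, 99948530 to 100015639, minus strand, 20 exon blocks), the carboxyltransferase beta subunit, was at 83.1, 76.2 and 86.7 CPM in Ctl against 40.2, 46.1 and 42.2 CPM in Li-KO. In both genes all Li-KO values were below all Ctl values and the spread within groups was narrow. The fall was 2.26-fold for Mccc1 (log2 fold change -1.18 ± 0.13, adjusted p = 0.00269) and 1.91-fold for Mccc2 (log2 fold change -0.94 ± 0.11, adjusted p = 0.00361). The FPKM ratio of Mccc1 to Mccc2 was 0.703, 0.722 and 0.595 in Ctl against 0.528, 0.503 and 0.632 in Li-KO, with overlap between groups (exact permutation p = 0.2, adjusted 0.25). Exons of Mccc1 overlap antisense and pseudogene models whose mean was at most 29.0 counts per library. The FPKM ratio of Ivd to Mccc1 was 3.34, 2.52 and 2.76 in Ctl against 1.06, 0.794 and 0.616 in Li-KO, with no overlap (exact permutation p = 0.1, adjusted 0.167).

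Of 7 measured genes of the other biotin-dependent carboxylases and of biotin attachment, 3 fell and 0 rose (5.9% and 6.11% of all genes tested). Pcca, the biotin-bearing subunit of propionyl-CoA carboxylase, fell from 96.8 ± 3.50 CPM in Ctl to 52.3 ± 1.56 CPM in Li-KO (adjusted p = 0.00277) and Acaca, acetyl-CoA carboxylase, from 157 ± 16.6 CPM in Ctl to 81.5 ± 11.1 CPM in Li-KO (adjusted p = 0.00775). Pcx, pyruvate carboxylase, fell from 687 ± 42.3 CPM in Ctl to 481 ± 40.3 CPM in Li-KO (adjusted p = 0.0398), and this call held only in the fit without Li-KO replicate 2 among the 6 that left out 1 library (adjusted p up to 0.139). Acacb, the other acetyl-CoA carboxylase of the list, did not pass (log2 fold change 0.50 ± 0.19, adjusted p = 0.120). Hlcs, which attaches biotin, and Btd, which recycles it, did not pass, with log2 fold changes of -0.29 and 0.14.

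Auh (ENSMUSG00000021460.16 in the count table and ENSMUSG00000021460.17 in the annotation that gives the position, chromosome 13, 52835119 to 52929681, minus strand, 16 exon blocks), the methylglutaconyl-CoA hydratase that also binds AU-rich RNA, was at 42.5, 36.4 and 43.9 CPM in Ctl against 51.5, 51.9 and 49.3 CPM in Li-KO. The 3 Li-KO values were all above the Ctl values, by a small margin beside the falls upstream of it. Its log2 fold change was 0.31 ± 0.12 with an unadjusted p of 0.0276 and an adjusted p of 0.120 by edgeR, so it did not pass. The 95% interval, not adjusted for the number of genes, covered 1.03 to 1.50 times the Ctl level. Of 5 tested genes of ketone body metabolism, 1 rose and 0 fell (6.11% and 5.9% of all genes tested). The one that rose was Bdh1, the hydroxybutyrate dehydrogenase, which went from 167 ± 33.0 CPM in Ctl to 275 ± 23.5 CPM in Li-KO (adjusted p = 0.0290). The Bdh1 call ended without Ctl replicate 0, Ctl replicate 1, Li-KO replicate 0 or Li-KO replicate 1 (adjusted p up to 0.0946). Along the leucine branch the falls lay from Bcat2 to Mccc2, with Bckdha, Dld and Auh not among them.

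**Figure D4:**
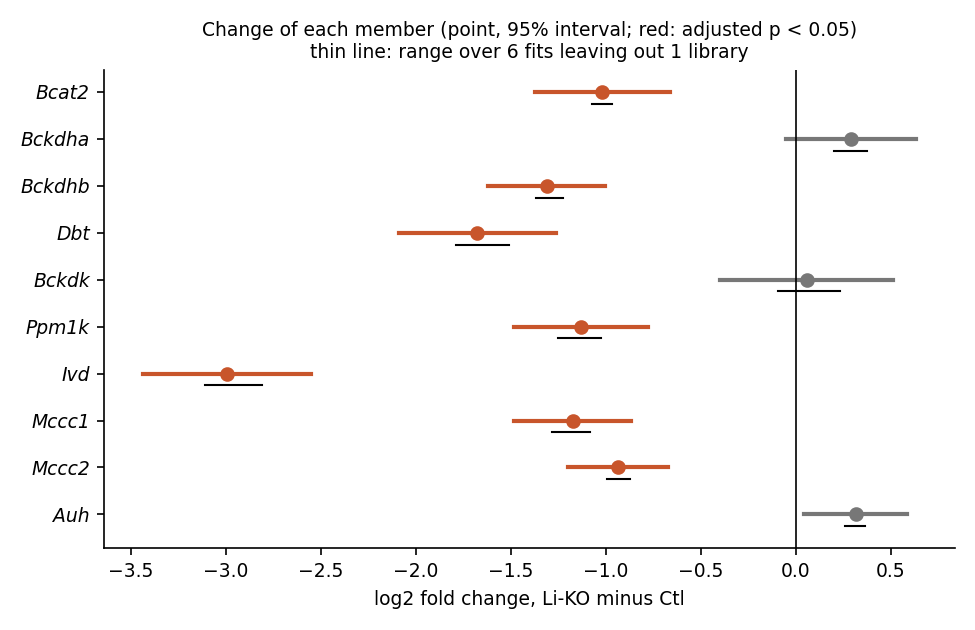
Log2 fold change (Li-KO minus Ctl) of each of the 10 genes in pathway order, with the 95% interval as a thick line, genes at an adjusted p under 0.05 in red, and a thin line for the range over the 6 fits that each left out 1 library. Ivd lies at -2.99, the other genes that fell between -1.68 and -0.94, and Bckdha, Bckdk and Auh between 0.06 and 0.31.

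Neighbouring parts of the pathway held genes that fell and genes that rose. Of 12 genes tested for isoleucine, valine and propionate breakdown, 6 fell and 2 rose (5.9% and 6.11% of all genes tested). Their median log2 fold change was -0.66. Abat, which acts on a product of valine and on GABA, fell from 508 ± 46.3 CPM in Ctl to 105 ± 23.4 CPM in Li-KO (adjusted p = 0.000739), and Aldh6a1, the methylmalonate semialdehyde dehydrogenase, from 775 ± 34.2 CPM in Ctl to 218 ± 40.6 CPM in Li-KO (adjusted p = 0.000986). The 2 that rose were Acad8 and Echs1, an enoyl-CoA hydratase, and Echs1 went from 186 ± 26.8 CPM in Ctl to 269.9 ± 20.7 CPM in Li-KO (adjusted p = 0.0435), a call that held only in the fit without Ctl replicate 0 among those that left out 1 library. Of 12 genes of the lipoate-dependent complexes and of lipoate attachment, 2 rose and 1 fell (6.11% and 5.9% of all genes tested). Dhtkd1, a dehydrogenase of lysine and tryptophan breakdown, fell from 126 ± 28.9 CPM in Ctl to 14.1 ± 4.52 CPM in Li-KO (adjusted p = 0.000965). Dlat, the pyruvate dehydrogenase counterpart of Dbt, rose from 63.7 ± 2.85 CPM in Ctl to 102 ± 6.11 CPM in Li-KO (adjusted p = 0.00873), and Dlst, its counterpart in the oxoglutarate dehydrogenase complex, from 251 ± 17.1 CPM in Ctl to 355 ± 17.7 CPM in Li-KO (adjusted p = 0.0325). The Dlst call held only in the fit without Li-KO replicate 2 (adjusted p up to 0.130).

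Of 7 tested carriers of branched-chain amino acids, 1 fell and 0 rose (5.9% and 6.11% of all genes tested). Slc6a19 was listed but not tested, with 0, 1 and 1 counts in Ctl against 0, 11 and 18 in Li-KO. Slc43a1, a facilitated carrier of large neutral amino acids including leucine, was at 12.8, 12.1 and 16.4 CPM in Ctl against 1.06, 0 and 0.438 CPM in Li-KO. All Li-KO values lay far under all Ctl values (log2 fold change -4.78 ± 0.72, adjusted p = 0.00775, -5.81 to -4.23 over the fits that left out 1 library). Slc25a44, the mitochondrial carrier of branched-chain amino acids, was at 145, 130.1 and 126 CPM in Ctl against 98.7, 104 and 105 CPM in Li-KO and did not pass (adjusted p = 0.0554). Over the 7 lists of related genes together, 60 different genes were tested, of which 11 fell (18.3%, against 5.9% of all genes tested) and 7 rose (11.7%, against 6.11%). The lists hold 5 to 14 tested genes each and were chosen with results of these data known, so single counts of 1 or 2 called genes are descriptions.

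**Figure D5:**
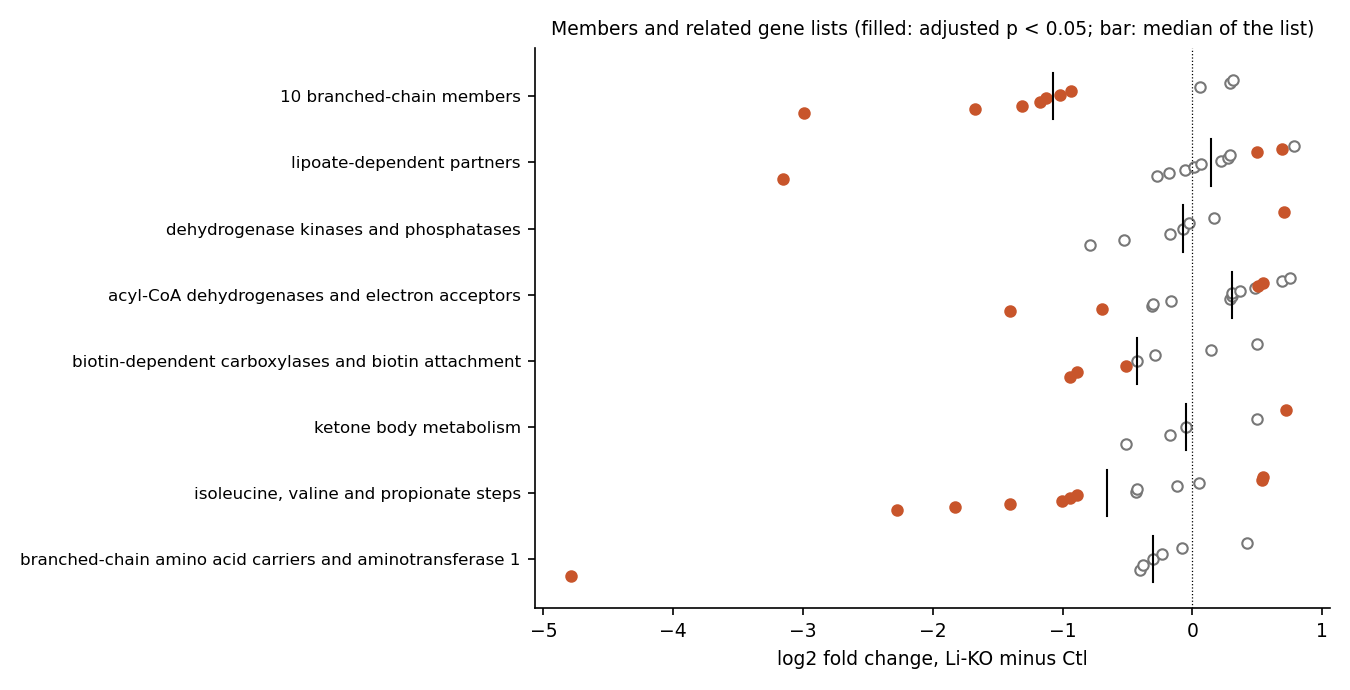
Log2 fold change (Li-KO minus Ctl) of the 10 genes and of the related lists, with each circle 1 gene, filled where the adjusted p was under 0.05, and the bar the median of the list. The 10 genes have a median of -1.08 and the other medians run from -0.66 (isoleucine, valine and propionate steps) to 0.31 (acyl-CoA dehydrogenases and electron acceptors).

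Within the Ctl group the genes did not keep 1 order of libraries. Ctl replicate 0 had the highest Klf15 level and the highest level of 5 of the 10 genes (Bcat2, Bckdha, Dbt, Ivd and Mccc1), a position it held in 36.0% of all genes tested. Ctl replicate 1 was the lowest of its group for 7 of the 10, and for 33.3% of all genes tested. All 7 falls were called in each of the 6 fits that left out 1 library.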

How the data were processed

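Libraries were made from column-purified total liver RNA with a stranded kit, per the labels' protocols, so unspliced transcripts can be counted. STAR alignment to mm10 and quantification by Cufflinks and Cuffdiff are named in the submitters' processing notes, and no source used here gives versions, annotation or strand setting. Raw fragments were deposited as estimated counts without normalization, per the file headers (3.29% not whole). The deposited FPKM values were scaled by the authors for length and between libraries, per the file headers. The conditions of the table (WT, KO) were assigned to Ctl and Li-KO by title and replicate number, with 0 libraries left over.

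Of 48432 gene IDs, 48051 matched a symbol. Bundles that Cuffdiff skipped for depth (77 genes, none of the 10 described) were left out. Counts were rounded, filtered (filterByExpr, minimum count 10, minimum total 15; 16533 genes) and TMM-scaled to CPM, and the groups were compared with edgeR 4.0.16 in R 4.3.3 (quasi-likelihood, two-sided, group as the only term). The SE is the size of the log2 fold change over the square root of its F statistic. Ratios used exact two-sided permutation over libraries. limma 3.58.1, DESeq2 1.42.0, other scalings, filters and units, a replicate block and leaving out libraries were the alternatives. The fitting function was tested on simulated data. Depth was 30132499 to 42782318 fragments a library. Coordinates and exons are from GENCODE M21 on mm10.

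The 10 genes and all lists were chosen with earlier results of these data known. All 10 are named. Of each related list, called genes are named, at most 4 by smallest p. Etfa, Etfb, Etfdh, Acacb, Hlcs, Btd, Dld, Slc25a44, Slc6a19, Bcat1, Echs1 and 0610005C13Rik were named in addition, for their role or position, after their values were seen. Part of a related list is not reported here, and its counts leave that part out.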

Additional observations from a re-analysis of the deposited data

How the results depend on the processing

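Over the 10 genes and 14 alternatives, 137 of 140 log2 fold changes kept their direction and their side of the threshold. The other 3 were of Bckdk, which ranged from -0.10 to 0.23 over the fits that left out 1 library and was at -0.07 without Ctl replicate 0, -0.10 without Li-KO replicate 0 and -0.23 without both (an alternative chosen after seeing the data), with the cause not tested. The counts of 7 lower and 0 higher genes of the 10 were found under all 14 alternatives. The 5 ratios kept their sign under theirs, where the tests could give no p under 0.1. For Bckdk to Bckdha the log2 difference was -0.56 without Ctl replicate 0 and -0.02 without Ctl replicate 1. Over all genes, leaving out 1 library gave 198 to 1102 higher and 234 to 1447 lower genes against 1010 and 976, and DESeq2 called 1595 higher and 1551 lower. The cause was not tested. Same-numbered libraries of the groups did not deviate together (correlations of deviations from the group means of 0.02, 0.08 and 0.07), so the numbers were not taken as pairs. With the replicate number as a block, edgeR called 956 higher and 1015 lower genes, and 7 of the 10 were lower. The sign-flip test of the ratios by replicate block cannot go below a p of 0.25.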
